A study of Mus musculus with 2 samples.

Results

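Atrial-gene-positive cardiomyocytes were 65 barcodes of 26178 in 2 libraries of cells from mouse hearts under pressure overload. A barcode was counted as a cardiomyocyte where Ttn, Myh6, Ryr2 and Tnnt2 together made up at least 2.5% of its UMIs outside mitochondrially encoded (mt-) genes and where mt- genes took at most 50% of all its UMIs. A UMI (unique molecular identifier) is a tag that marks 1 captured RNA molecule. A cardiomyocyte was a member where Myl7, Sln, Bmp10 and Sbk2 together had at least 1 UMI, and it was compared with the cardiomyocytes of the same library that had 0 such UMIs. The rule took 27 members of 4623 cardiomyocytes in the library labelled wild-type and 38 of 701 in the library labelled p53 knockout, which left 4596 and 663 compared cardiomyocytes. The members were chosen by these counts, so the levels of the 8 genes of the rule are descriptions of the choice and nothing below rests on them as evidence.

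Atrial and ventricular muscle cells of the adult heart share the contractile apparatus but use different isoforms of it. Atrial cells carry the light chains Myl7 and Myl4 where ventricular cells carry Myl2 and Myl3, they restrain the calcium pump with sarcolipin (Sln) where ventricular cells rely on phospholamban (Pln), and they make and store atrial natriuretic peptide (Nppa). Under pressure load ventricular muscle also makes Nppa, so Nppa alone does not tell the chambers apart.

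All animals had undergone transverse aortic constriction (TAC), in which a ligature around the aorta raises the pressure against which the left ventricle pumps, and left ventricular tissue was taken 6 weeks later. The 2 groups were labelled wild-type and p53 knockout, and the study asked what p53, the stress-responsive transcription factor encoded by Trp53, does in hypertrophy. Each group was 1 library made from the mixed tissue of 3 hearts. The labels give no strain, age, sex or allele, do not say which exons were deleted or in which cells, give the cell type as cardiomyocytes, and include no animals without TAC.

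The 16060 barcodes of the library labelled wild-type had 18897913 UMIs in all, and the 10118 of the library labelled p53 knockout had 20918824. Levels are given as CPM, the count of a gene per 1000000 UMIs outside mt- genes. Trp53 was not lower in the library that carries the knockout label: over all barcodes it was at 38.8 CPM where the label was wild-type and at 55.2 CPM where it was p53 knockout, and in cardiomyocytes at 27.8 and 25.7 CPM. Which exons these counts come from is not known here, so the group names below are the labels. Members of the library labelled wild-type had 0 UMIs of Xist and 16 UMIs of 4 Y-linked genes, and members of the other library had 79 and 1, so sex differed between the libraries along with the label. Genotype, sex and library cannot be told apart in any comparison between the libraries, and with 1 library per group there was no test. Intervals are exact 95% intervals that cover counting error only. No member's barcode was among the 105 barcodes that occur in both libraries.

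The sequences next to the start of 4 genes that had the highest levels or ratios among the members are shown for orientation: Nppa, the atrial light chains Myl7 and Myl4, and Mybphl, a myosin-binding protein C relative. They are the 250 bases upstream of the RefSeq start on GRCm38.p6, 5′ to 3′ on the gene's strand, at chr4:148000472-148000721 (+), chr11:5898783-5899032 (-), chr11:104550413-104550662 (+) and chr3:108364661-108364910 (+). Capitals mark GATA (the core that GATA factors bind), AAGTG (the core that Nkx2-5 binds), AGGTCA (a nuclear receptor site), AGGTGT (a T-box core) and TATAAA, each searched on both strands.
Nppa: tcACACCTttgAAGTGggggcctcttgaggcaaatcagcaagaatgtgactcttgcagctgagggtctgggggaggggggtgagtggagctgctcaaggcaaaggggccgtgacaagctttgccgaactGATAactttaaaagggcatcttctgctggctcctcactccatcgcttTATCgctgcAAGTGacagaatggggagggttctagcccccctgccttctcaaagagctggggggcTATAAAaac
Myl7: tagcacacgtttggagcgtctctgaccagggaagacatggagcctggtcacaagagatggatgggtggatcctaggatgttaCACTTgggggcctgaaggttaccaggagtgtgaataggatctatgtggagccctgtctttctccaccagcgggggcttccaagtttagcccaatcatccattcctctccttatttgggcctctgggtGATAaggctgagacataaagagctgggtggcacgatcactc
Myl4: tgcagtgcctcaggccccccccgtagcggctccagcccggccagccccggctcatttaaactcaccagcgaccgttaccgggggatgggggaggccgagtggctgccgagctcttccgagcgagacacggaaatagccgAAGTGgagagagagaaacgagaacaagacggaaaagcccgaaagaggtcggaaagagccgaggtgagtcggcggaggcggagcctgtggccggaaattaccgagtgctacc
Mybphl: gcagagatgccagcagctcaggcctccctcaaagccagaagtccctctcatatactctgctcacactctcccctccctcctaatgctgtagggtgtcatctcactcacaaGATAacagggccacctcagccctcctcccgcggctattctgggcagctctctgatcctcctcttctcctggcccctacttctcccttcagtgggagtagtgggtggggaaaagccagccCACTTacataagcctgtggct
The Nppa window held 2 GATA, 2 AAGTG, 1 AGGTGT and 1 TATAAA match. Myl7 and Mybphl each held 1 GATA and 1 AAGTG match, and Myl4 held 1 AAGTG match. Among 32851 such windows of the same length, 53.6% held GATA, 40.7% AAGTG, 14% AGGTCA, 11.8% AGGTGT and 12.4% TATAAA, so most of these matches are common ones. They describe the letters only.

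Atrial transcripts were unequally spread between the libraries and among the members. In the library labelled p53 knockout 11 members held 5 or more UMIs of the 4 atrial genes, 6 held 2 to 4 and 21 held 1. The highest members there had 84 and 83 such UMIs, followed by 17, 16, 15, 11, 9, 8, 7, 7 and 6. No member of the library labelled wild-type held more than 3, with 22 members at 1 UMI and 5 at 2 to 4. Taking 3 cells as the floor for a count of 0, 0 of 4623 allows a share of up to 0.0649% of cardiomyocytes with 5 or more UMIs, whereas the 11 in the other library were 1.57% (0.786 to 2.79).

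**Figure D1:**
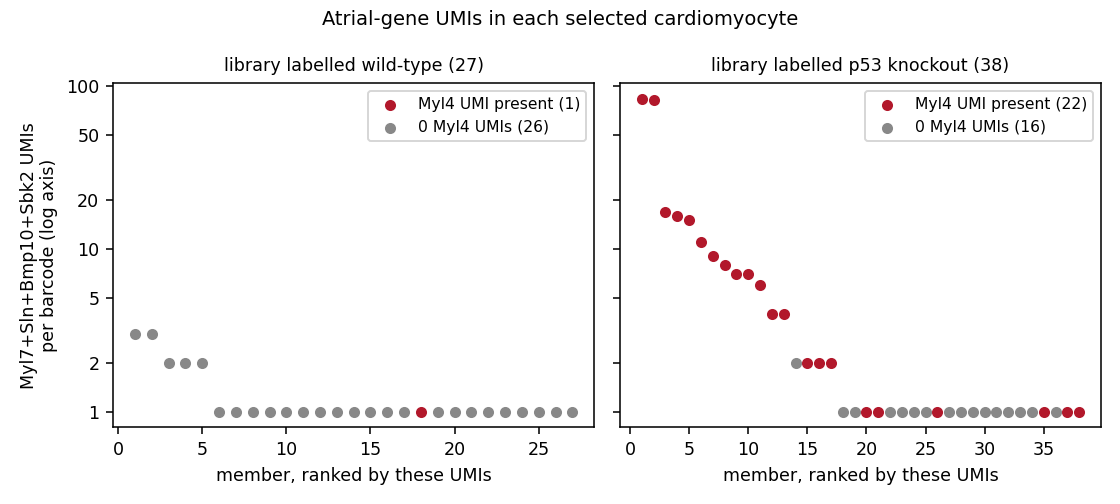
UMIs of Myl7, Sln, Bmp10 and Sbk2 in each member (log axis), ranked within the library labelled wild-type (27 members) and the library labelled p53 knockout (38), coloured by whether the member also had a Myl4 UMI. All 11 members with 5 or more UMIs are in the library labelled p53 knockout and all 11 have Myl4, whereas 1 of the 27 members of the other library does.

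The 4 atrial genes did not contribute alike. Myl7, the atrial regulatory light chain (chromosome 11, 5896637 to 5898782, minus strand, mm10), had 198 UMIs in the 38 members of the library labelled p53 knockout and 6 in the 27 of the other. Sln, a short membrane peptide (chromosome 9, 53850164 to 53854560, plus strand), had 98 and 2 UMIs. Bmp10, a growth factor that is made by right atrial muscle (chromosome 6, 87428994 to 87437677, plus strand), had 0 and 3 UMIs. Sbk2, an SH3-binding kinase of the atria (chromosome 7, 4940512 to 4964406, minus strand), had 4 and 23 UMIs. The members of the library labelled p53 knockout were thus chosen mainly by Myl7 and Sln, with 12 by Myl7 alone, 11 by Sln alone, 12 by both, 2 by Sbk2 alone and 1 by Myl7, Sln and Sbk2. Of the 27 in the library labelled wild-type 18 were chosen by Sbk2 alone, 5 by Myl7, 2 by Bmp10, 1 by Sln and 1 by Myl7, Sln and Bmp10 together.

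The share of cardiomyocytes that were members was 5.42% (3.86 to 7.36) in the library labelled p53 knockout and 0.584% (0.385 to 0.849) in the library labelled wild-type, a ratio of 9.28 (5.52 to 15.8). Cardiomyocytes of the former were deeper, with a median of 1702 UMIs against 1040. After thinning every barcode to 500 UMIs the shares were 3.14% (1.98 to 4.71) and 0.260% (0.134 to 0.453), and no barcode was too shallow for that.

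UMIs of these genes also occurred in barcodes outside the cardiomyocyte rule that had markers of other cell types. These classes can include barcodes just below the 2.5% limit. In the library labelled p53 knockout the highest fibroblast-marker barcode had 148 such UMIs, as did the highest barcode at 2 to 2.5% of cardiomyocyte genes. The fibroblast-marker shares there are therefore not a clean background of other cells. Barcodes with fibroblast markers had such a UMI in 4.27% of cases (3.51 to 5.14; 106 of 2484, median 1792 UMIs) where the label was p53 knockout and in 0.548% (18 of 3283, median 1048 UMIs) where it was wild-type. Barcodes with endothelial markers had one in 1.85% (1.38 to 2.43; 50 of 2702, median 1624 UMIs) and 0.295% (8 of 2714, median 926 UMIs). Barcodes with macrophage markers had one in 1.90% (10 of 527) and 0.347% (2 of 577). The share of cardiomyocytes in the library labelled wild-type, over the 4 genes together, was therefore not above that of the fibroblast-marker barcodes beyond counting error and is not read as expression. Sbk2 by itself had a UMI in 0.389% of these cardiomyocytes (0.231 to 0.615) and 0.122% of all other barcodes (0.0669 to 0.205). After thinning the shares were 0.238% (0.119 to 0.425) and 0.0787% (0.0360 to 0.149). The intervals overlapped after thinning but not before it. Whether the Sbk2 share reflects expression was not tested, and it is not read as expression here. For the library labelled p53 knockout the interval of the cardiomyocytes lay above that of the endothelial-marker barcodes and overlapped that of the fibroblast-marker barcodes. For 5 or more UMIs the shares there were 1.57% of cardiomyocytes, 0.443% (0.221 to 0.791) of fibroblast-marker barcodes and 0 of 2702 endothelial-marker barcodes, which by the same floor allows up to 0.111%.

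**Figure D2:**
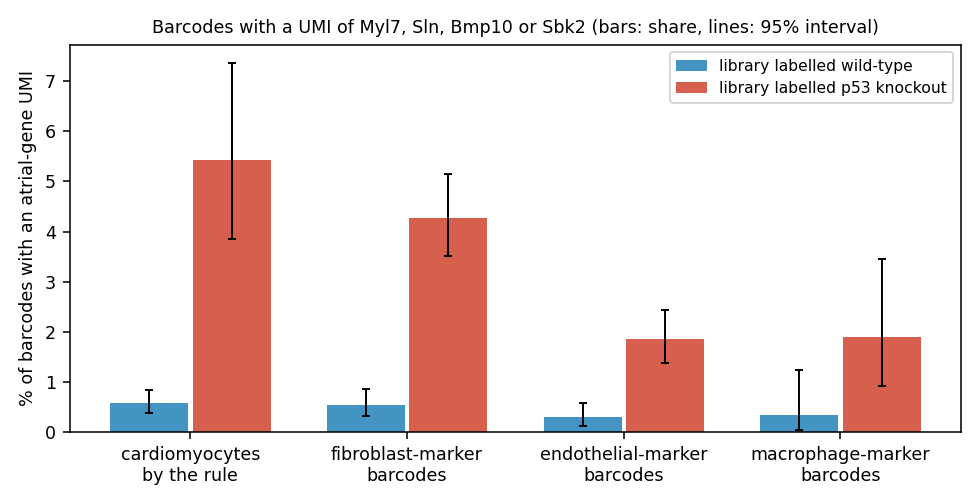
Percent of barcodes with at least 1 UMI of Myl7, Sln, Bmp10 or Sbk2 among cardiomyocytes by the rule and among barcodes with fibroblast, endothelial or macrophage markers, in the library labelled wild-type (blue) and the library labelled p53 knockout (red), with exact binomial 95% intervals. All 4 classes are higher in the library labelled p53 knockout, from 1.85% in endothelial-marker barcodes to 5.42% in cardiomyocytes.

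The label "atrial" was checked with Myl4 and Nppa, which the rule did not use. Among members of the library labelled p53 knockout 22 of 38 had a Myl4 UMI and 32 had an Nppa UMI, against 25 and 267 of 663 compared cardiomyocytes. All 11 members with 5 or more UMIs of the rule's genes had both. Members of this library were deeper than its compared cells, with a median of 2996 against 1682 UMIs. After thinning to 500 UMIs, 17 of 38 members had Myl4 and 24 had Nppa, against 8 and 115 of 663. Of the 27 members of the library labelled wild-type 1 had a Myl4 UMI and 4 had an Nppa UMI, against 30 and 89 of 4596. The name therefore matched these markers for members of the library labelled p53 knockout with several atrial UMIs, and the data went against it for most members of the library labelled wild-type, which are called here by the rule.

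Members of the library labelled p53 knockout with 5 or more atrial UMIs had UMIs of Myl4 and Nppa and few of Myl2. The member with 84 such UMIs had 51 of Myl7 and 33 of Sln, together with 136 of Myl4, 81 of Nppa, 131 of Ankrd1 and 0 of Myl2. The member with 83 had 72 of Myl7 and 9 of Sln, together with 76 of Myl4, 744 of Nppa, 48 of Nppb and 1 of Myl2. The member with 16 had 83 of Myl4, 268 of Nppa and 1 of Myl2. These 3 members thus differ widely in Nppa and have at most 1 UMI of Myl2 between 3006 and 9529 total UMIs. Other ventricular transcripts were not absent from them: in the same order they had 36, 0 and 4 UMIs of Myl3 and 12, 12 and 1 of Pln.

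Over all 11 of these members Myl4 ran from 5 to 136 UMIs with a median of 18, and Nppa from 10 to 744 with a median of 143. Myl2 was at 0 in 6 of the 11 and reached 7 at most, although their medians were 2403 total UMIs and 12.1% mt- UMIs (lowest 7.44%, highest 26.6%). The members at 17 and 8 atrial UMIs were those with the most Myl2, at 6 and 7 UMIs, and their mt- shares were 23.2% and 22.6%. The ventricular light chain Myl3 was at 0 in 4 of the 11 members, with a median of 1 UMI and 36 at most. The ratio of Myl2 to Myl4 UMIs was 0.0494 in the 11 members and 56.4 in the compared cardiomyocytes. The ratio of Myl4 to Myl7 was 2.21 in the 11 members and 2.60 in the members with 1 UMI. Myl7 is a gene of the rule, so these ratios depend on the choice and are given as a description. In all barcodes outside the cardiomyocyte rule the ratio was 1.98, and in those of them with an atrial UMI it was 1.28.

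**Figure D3:**
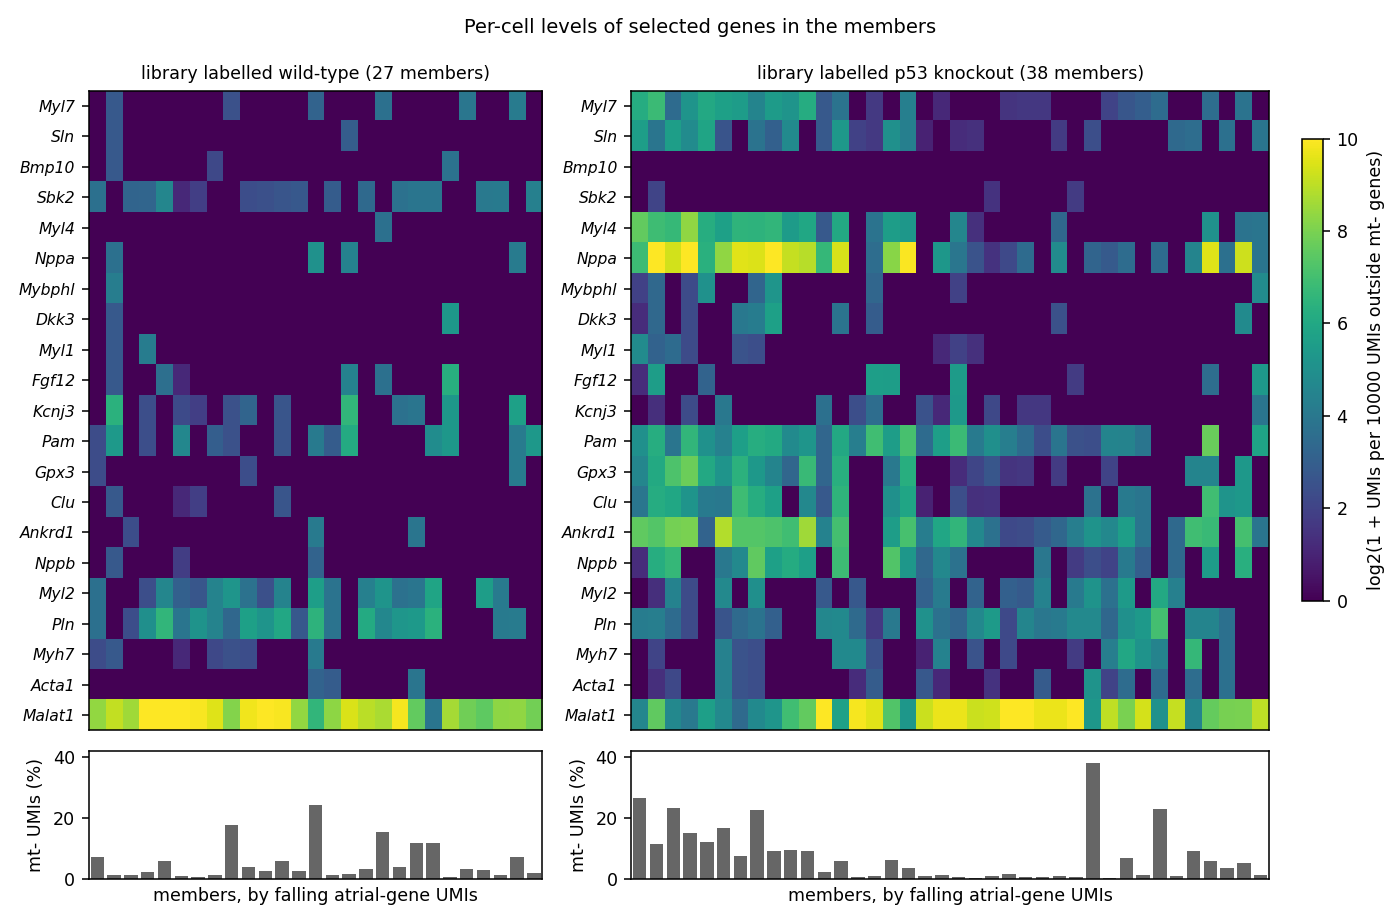
Levels of 21 genes (log2 of 1 plus UMIs per 10000 UMIs outside mt- genes) in each member of both libraries, ordered by falling atrial-gene UMIs, above the share of mt- UMIs in the same member. Myl4, Nppa, Gpx3, Clu and Ankrd1 are high on the left of the library labelled p53 knockout, where mt- shares run from 7.44% to 26.6%, and near 0 in most members of the library labelled wild-type.

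The members of the library labelled p53 knockout were then summed and set against the 663 compared cardiomyocytes. Among genes outside the rule that met the minimum of 30 UMIs given below, Myl4 had the highest ratio, but it met that minimum only through the members. Myl1 and Gpx3, which are not on the atrial list below, ranked above Nppa with log2 ratios of 4.41 and 4.11. Myl4 (chromosome 11, 104550663 to 104595753, plus strand), the atrial essential light chain, had 3645 CPM (3315 to 3998) in the members and 29.1 CPM (21.7 to 38.2) in the compared cells, a log2 ratio of 6.96 (6.55 to 7.41). Nppa (chromosome 4, 148000722 to 148002079, plus strand) was at 18361 CPM in the members against 1076 CPM, which is 4.09 on the log2 scale (4.0 to 4.18). Mybphl (chromosome 3, 108364911 to 108380057, plus strand) was below that minimum. It had 28 UMIs in 9 members and 2.24 CPM in the compared cells, a log2 ratio of 6.52 (5.15 to 8.64).

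For some atrial genes the members held most of the UMIs found in cardiomyocytes of that library. They were 5.42% of its cardiomyocytes and had 6.45% of their UMIs outside mt- genes, but they held 89.6% of Myl4, 87.5% of Mybphl, 61.2% of Dkk3, 54.1% of Fgf12 and 54.1% of Nppa UMIs. Their share was 25.9% for Clu and 16.9% for Pam, and 32.1% for the summed list of 24 genes known for atrial muscle that is described below. Gpx3, which is not on that list, was at 54.4%. Their share of Myl2 UMIs was 3.46% and of Myh7 UMIs 2.27%. The 2 members with the most atrial UMIs alone held 62.1% of the members' Myl7 UMIs and 47.2% of their Myl4 UMIs. Without these 2, an alternative chosen after the data were seen, Myl4 had 2160 CPM and a log2 ratio of 6.20, and Nppa 13095 CPM and 3.6.

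Of 700 genes with at least 30 UMIs in the members, or 30 expected there at the level of the compared cells, 61 were at least 2-fold higher in the members (8.71%) and 16 at least 2-fold lower (2.29%), with a median log2 ratio of -0.06. A gene that meets the minimum only through the members has to be high in them. This held for 131 of the 700 and for 43 of the 61. Of the 569 genes with 30 UMIs expected from the compared cells alone, 18 were at least 2-fold higher (3.16%) and 16 at least 2-fold lower (2.81%), with a median of -0.18; this setting was added after the data were seen. Without the 2 members just named these counts were 19 and 9.

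Beside the rule's own genes, 24 genes known for atrial muscle formed a list. Of these, 20 had a UMI in the members and 9 met the minimum, but Myl4, Dkk3 and Fgf12 met it only through the members. Of the 6 that met it in the compared cells alone (Nppa, Kcnj3, Chrm2, Pam, Clu and Angpt1), 4 were at least 2-fold higher and 0 at least 2-fold lower, with a median log2 ratio of 1.32. Dkk3, a secreted Wnt modulator, had 244 and 10.6 CPM (log2 ratio 4.50). Fgf12, an intracellular regulator of sodium channels, had 755 and 44.2 CPM (4.09), with 93 UMIs in 9 of the 38 members. Clu, which encodes the secreted chaperone clusterin, had 1485 and 293 CPM (2.34). Pam, the enzyme that amidates peptides and an abundant protein of atrial granules, had 3669 and 1242 CPM (1.56), and it was present in 33 of 38 members. Angpt1, an angiopoietin, had 528 and 251 CPM (1.08), but 42 of its 65 UMIs in the members were in 2 of them. Kcnj3, a subunit of the acetylcholine-gated potassium channel, had 455 and 296 CPM (0.63), and Chrm2, the muscarinic receptor upstream of it, had 836 and 980 CPM (-0.22). The ratio of Kcnj3 was -0.68 when only the 11 members with 5 or more atrial UMIs were counted. Of these 11, 3 had an Angpt1 UMI and 1 had a Chrm2 UMI, with at most 1 UMI each. Nppa, Pam and Clu were at least 2-fold higher in the 11 than in the compared cells.

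Other genes on that list were below the minimum. Tbx5, a T-box factor that is needed for atrial identity, had 18 UMIs in 6 members (146 against 47.0 CPM). It was at 0 in all 11 members with 5 or more atrial UMIs. The 2 members with the most Tbx5, at 9 and 4 UMIs, had mt- shares of 0.777% and 1.15%. Stard10, a lipid transfer protein, had 9 UMIs in 5 members and 2.24 CPM in the compared cells. Hamp, the iron hormone hepcidin, had 6 UMIs, all in 1 member. Dhrs9, Kcna5 and Gja5 had 0 UMIs in the members; Gja5 encodes an atrial and conduction system connexin. At 123196 UMIs outside mt- genes in all members together, a low level of these 3 genes could not be seen.

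Among the highest ratios by the rule for named genes were also some that are not on the atrial list. Gpx3, a secreted glutathione peroxidase, had 1964 and 114 CPM (4.11, 3.84 to 4.39), with UMIs in 25 of 38 members. Myl1, a light chain best known from fast skeletal muscle, had 276 and 12.9 CPM (4.41). Ryr3, a ryanodine receptor, had 276 and 17.4 CPM (3.99), but 27 of its 34 UMIs were in 1 member. Pgam2, the muscle phosphoglycerate mutase, had a log2 ratio of 1.94, Arf1, a GTPase of vesicle traffic, 1.83, and Eef1a1, a translation elongation factor, 1.70. Ankrd1, a stretch-responsive titin-binding protein, had 6965 and 2203 CPM (1.66, 1.55 to 1.77).

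Among ventricular genes Myh7 and Myl2 were lower in the members, whereas Pln and Myl3 were close to the compared cells. Of 11 on that list 9 had a UMI and 4 met the minimum; all 4 had log2 ratios below 0, 1 of them was at least 2-fold lower, and the median was -0.57. Myh7, the slow myosin heavy chain, had 722 CPM (580 to 889) and 2147 CPM, a log2 ratio of -1.56 (-1.89 to -1.27). Myl2 (chromosome 5, 122100951 to 122113472, plus strand) had 852 and 1642 CPM (-0.94, -1.24 to -0.66). Pln had 1778 and 2045 CPM (-0.20), and Myl3, the ventricular essential light chain, had 1209 and 1232 CPM (-0.02). The sarcomere genes of the rule were close to the compared cells, with 14083 and 13672 CPM for Myh6 and 18775 and 20576 CPM for Ttn.

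The 12 lowest genes were led by Fam13a, with 56.8 and 250 CPM (-2.04, -3.46 to -1.08). They included the potassium channel genes Kcnd3, a subunit of the transient outward current, with 106 and 289 CPM (-1.40), and Kcnn2, a calcium-activated channel, with 252 and 577 CPM (-1.17). Kctd16 had a log2 ratio of -1.53, Tnrc6c -1.46, Cdc37l1 -1.31, Heg1 -1.14, Tnrc6a -1.11, Tlr4 -1.10 and Srrm2 -1.09. Acta1, the skeletal actin that ventricular muscle makes under load, had 300 and 663 CPM (-1.12, -1.66 to -0.67). On the list of 19 potassium channel genes, 4 met the minimum, 2 were at least 2-fold lower and 0 at least 2-fold higher, with a median of -0.74.

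The genes of the load response did not differ in 1 direction. Of 16 on that list 9 met the minimum, 3 were at least 2-fold higher (Ankrd1, Des and Nppb), 2 were at least 2-fold lower (Myh7 and Acta1), and the median was 0.05. Des, the intermediate filament desmin, had 1031 and 420 CPM (1.30), and Nppb, the second natriuretic peptide, had 1891 and 850 CPM (1.16). Corin, the protease that activates atrial natriuretic peptide, had 982 and 1038 CPM (-0.07). Of 14 nuclear-encoded oxidative phosphorylation genes 7 met the minimum in the compared cells alone; all 7 had ratios above 0, with 2 at least 2-fold higher and a median of 0.97. Cycs, which met it through the members, had 430 and 181 CPM (1.26). Of 20 calcium-handling genes 11 met the minimum in the compared cells alone, 0 of them were at least 2-fold higher or lower, and the median was -0.12. S100a1, which met it through the members, had 398 and 131 CPM (1.61).

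Mitochondrial RNA moved with these values. The median mt- share was 4.55% in the members and 1.27% in the compared cells, and 19 of 38 members and 131 of 663 compared cells had at least 5%. The nuclear RNA Malat1 went the other way, with a log2 ratio of -0.37. The comparison was therefore repeated among barcodes with an mt- share of at least 5% on both sides, a subset picked with the data in view. In these 19 members and 131 compared cells Nppa had 53942 and 5255 CPM (3.36) and Pam 4617 and 866 CPM (2.41), the direction seen before. Myl4 had 10696 and 17.7 CPM (9.07) and Fgf12 923 and 4.42 CPM (7.14), with 30 of its 36 UMIs in 1 member. Myl4 and Fgf12 met the minimum only through the members, with 4 and 1 UMIs in the compared cells, so they had to be high. Mybphl, which was below the minimum with 20 UMIs, had 513 CPM in the members and 0 UMIs in the compared cells. That is at least 38.7-fold higher against a floor of 3 counts over the group. Of the atrial list 3 genes, Nppa, Pam and Clu, met the minimum in the compared cells of this subset alone. All 3 were at least 2-fold higher with a median of 2.41. Over all 112 genes that met it in that way, 5 were at least 2-fold higher (4.46%), these 3 included.

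The ventricular genes were further apart in that subset. Myl2 had 1077 and 5949 CPM (-2.45), Myh7 846 and 4570 CPM (-2.41), Pln 1693 and 4084 CPM (-1.26), and all 4 eligible genes of the list, Myl3 included, were at least 2-fold lower with a median of -1.84. Acta1 had 513 and 3284 CPM (-2.64), Hspb6, a small heat shock protein, had a log2 ratio of -2.77, and Xirp2, an actin-binding protein of the intercalated disc, -1.12. The oxidative phosphorylation list, by contrast, had a median of 0.05 over 8 genes. Of 139 eligible genes 14 were at least 2-fold higher (10.1%), 9 of them eligible only through the members, and 19 at least 2-fold lower (13.7%).

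**Figure D4:**
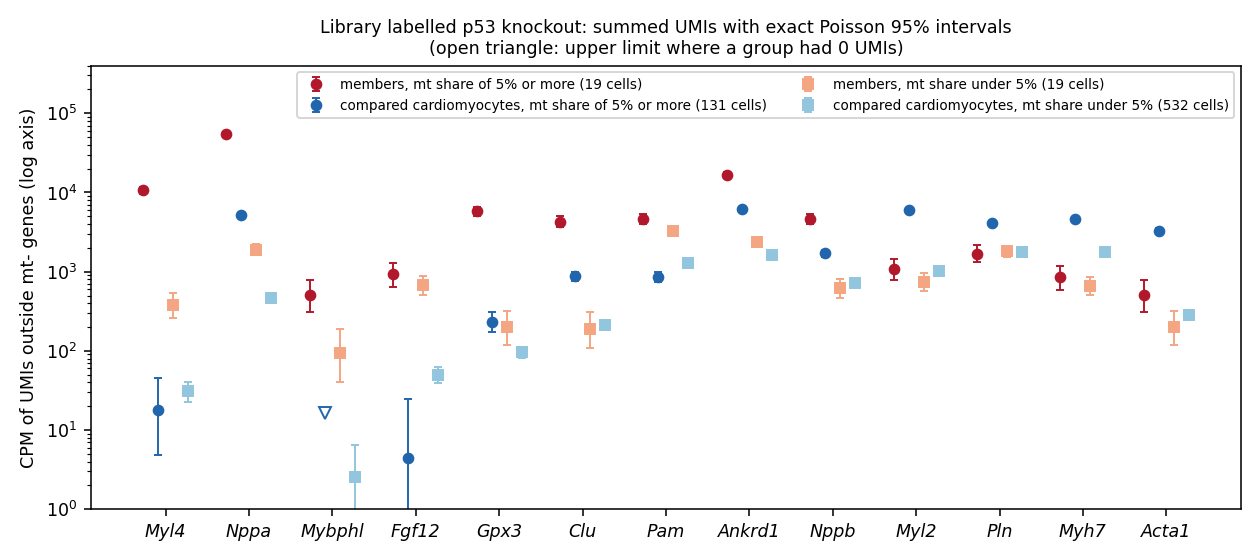
CPM of 13 genes (log axis) in members and compared cardiomyocytes of the library labelled p53 knockout, each split at an mt- share of 5% (19 and 19 members, 131 and 532 compared cells), with exact Poisson 95% intervals; an open triangle marks the upper limit of a gene with 0 UMIs. Myl4, Nppa and Pam are higher in members in both mt- ranges. At mt- shares of 5% or more Acta1, Myl2 and Myh7 are lowest relative to compared cells, and Pln is also lower.

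For the 11 members with 5 or more atrial UMIs, 69 of 144 eligible genes were at least 2-fold higher (47.9%) and 58 at least 2-fold lower (40.3%). Of the 69, 58 met the minimum only through these members. Among the 83 genes that met it in the compared cells alone, 11 were at least 2-fold higher and 58 at least 2-fold lower. These 83 include 4 ventricular genes, Myl2, Myl3, Pln and Myh7. Of the 4, 2 were at least 2-fold lower and 1, Myl3, had a ratio above 0. Cacnb2, a subunit of the L-type calcium channel, had 0 UMIs in them, at least 12.5-fold lower than its 1263 CPM in the compared cells, and Ppargc1a, a coactivator of mitochondrial biogenesis, also had 0, at least 10.4-fold lower than 1048 CPM. Neat1, a nuclear long noncoding RNA, had 403 and 6851 CPM, and Vegfa 101 and 1840 CPM. The mt- shares given above moved with these genes. So did markers of other cells: in these 11 members summed fibroblast markers were at 3020 CPM against 806, macrophage markers at 503 against 138 and smooth muscle markers at 302 against 37.5, with 6 of 7, 6 of 7 and 3 of 4 markers present and Pdgfra, Cd68 and Myh11 at 0. The part of either in the differences was not tested. For the 21 members with 1 atrial UMI, whose median mt- share was 1.19%, 10 of 365 eligible genes were at least 2-fold higher (2.74%) and 6 at least 2-fold lower (1.64%).

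The 38 members of that library fell apart by Myl4, a split made after the data were seen and given here as a description. Of the 22 with a Myl4 UMI, 15 had an mt- share of 5% or more. In these, Nppa made up 63730 CPM, Myl4 12679 CPM, Ankrd1 19095 CPM, Gpx3 6780 CPM and Clu 4895 CPM, with Malat1 at 7723 CPM. The other 7 had mt- shares from 0.423% to 3.68% and 82577 CPM of Malat1. Their Myl4 level was 1199 CPM from 32 UMIs and their Nppa level 4386 CPM, but Fgf12 was at 2099 CPM, Pam at 6147 CPM, Kcnj3 at 1424 CPM and Ryr3 at 1125 CPM, whereas Kcnj3 was at 152 CPM in the 15. These levels rest on 2 of the 7 members, which held 53 of 56 Fgf12, 134 of 164 Pam, 33 of 38 Kcnj3 and all 30 Ryr3 UMIs; without them Fgf12 was at 199 CPM, Pam at 1987 CPM and Kcnj3 at 331 CPM. Myl2 was low in both groups, at 608 CPM in the 15 and 262 CPM in the 7, against 1642 CPM in all compared cells. Compared cells with an mt- share of 5% or more had 5949 CPM of Myl2.

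The first of these 2, a member with 7077 UMIs and an mt- share of 0.777%, was chosen by 1 UMI of Sln and had 16 UMIs of Myl4, 10 of Nppa, 67 of Ankrd1, 79 of Pam, 31 of Fgf12, 28 of Kcnj3, 27 of Ryr3, 6 of Pln and 0 of Myl2. The other, with 4610 UMIs and an mt- share of 1.15%, had 1 UMI each of Myl7 and Sln, with 6 of Myl4, 4 of Mybphl, 22 of Fgf12, 55 of Pam and 0 of Myl2. These 2 members hold 53 of the 57 Fgf12 UMIs found in the 19 members with mt- shares under 5%.

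The 16 members without a Myl4 UMI were different again. All but 1 had 1 atrial UMI, their median mt- share was 1.17%, and 12 of them had Myl2. Their Nppa level was 770 CPM (570 to 1018), below the 1076 CPM of the compared cells. Myl2 was at 1226 CPM, Pln at 2232 CPM and Myh7 at 1163 CPM, Mybphl and Dkk3 had 0 UMIs, and Fgf12 had 1. Myh7 in the 16 was thus also below the compared cells, which had 2147 CPM (2079 to 2216). On these genes the 16 lay nearer to the compared cardiomyocytes than the 22 with Myl4 did, but they did not match them in Nppa and Myh7. Over all 38 members, 15 had Myl4 and no Myl2, 12 had Myl2 and no Myl4, 7 had both and 4 had neither.

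**Figure D5:**
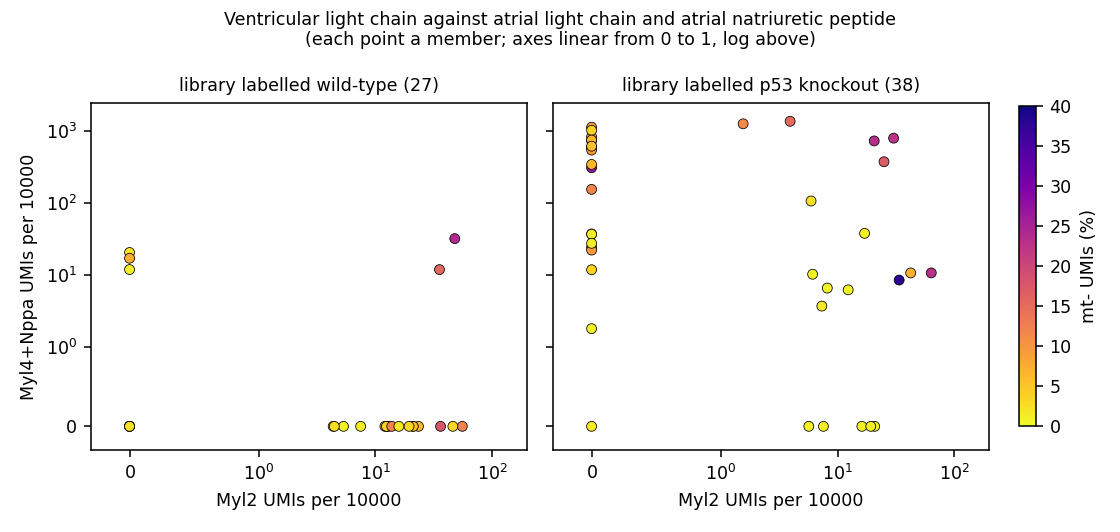
Myl2 against Myl4 plus Nppa (UMIs per 10000 UMIs outside mt- genes; axes linear from 0 to 1 and log above) in each member, coloured by its share of mt- UMIs. Of the 38 members of the library labelled p53 knockout 19 lie at 0 for Myl2, and in the library labelled wild-type most of the 27 members lie at 0 for the atrial genes, with 19 of them above 0 for Myl2.

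The compared cardiomyocytes of that library were not free of atrial transcripts either. Among the 663, 25 had a Myl4 UMI (3.77%), a share close to the 3.42% to 3.90% of barcodes with macrophage, endothelial or fibroblast markers. However, 6 of the 25 had 3 or more and held 30 of the 52 Myl4 UMIs, with 39 UMIs of Fgf12 and 87 of Pam beside 9 of Myl2. These 6 had 0 UMIs of the rule's 4 genes and so were not members.

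Members of the library labelled wild-type were close to the compared cardiomyocytes in most genes. Of 170 eligible genes 6 were at least 2-fold higher (3.53%) and 2 at least 2-fold lower (1.18%), with a median log2 ratio of 0.12. All 6 met the minimum only through the members; of 131 genes that met it in the compared cells alone 0 were at least 2-fold higher and 2 at least 2-fold lower. The 6 highest were Kcnj3, with 954 CPM (695 to 1276) and 354 CPM (1.45, 0.97 to 1.86), followed by Setbp1 (1.12), Aox1 (1.08), Fbxo32 (1.03), Angpt1 (1.02) and Pam (1.0). Kcnj3, Angpt1 and Pam are on the atrial list, of which Chrm2 alone met the minimum in the compared cells (0.40). The 6 lowest were Airn (-1.09), Myocd (-1.09), Hmcn1 (-1.0), Cdh2 (-0.86), Acyp2 (-0.69) and Pde4b (-0.57). Myocd encodes the coactivator myocardin and Cdh2 the N-cadherin of the intercalated disc.

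Those atrial genes came from few members. Nppa had 10 UMIs in 4 of the 27 members, with a level of 212 CPM against 30.1 CPM, and Fgf12 had 13 UMIs in 6 members (275 against 10.2 CPM). Of the 45 Kcnj3 UMIs, 28 were in 2 members. Myl2 had 1250 and 1863 CPM (-0.56, -0.97 to -0.21) and Pln 2543 and 3352 CPM (-0.39, -0.67 to -0.14), and the 3 eligible ventricular genes all had ratios below 0.

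Among members of that library with several atrial genes, 3 had 0 UMIs of both Myl2 and Pln; they are described after their values were seen. The first had 1711 UMIs and an mt- share of 1.23%, with 1 UMI each of Myl7, Sln and Bmp10, 2 of Nppa, 3 of Mybphl, 14 of Kcnj3, 7 of Pam and 7 of Angpt1. The next had 1493 UMIs and an mt- share of 1.81%, with 1 UMI of Sln, 3 of Nppa, 3 of Fgf12, 14 of Kcnj3 and 10 of Pam. The last had 797 UMIs and an mt- share of 0.627%, with 1 UMI of Bmp10, 3 of Dkk3, 6 of Fgf12, 3 of Kcnj3 and 3 of Pam. None of the 3 had Myl4. Others with several atrial genes did have ventricular transcripts. A member with 1652 UMIs and an mt- share of 24.2% had 1 UMI of Myl7 and 4 of Nppa, the most Nppa there, with 6 of Myl2 and 11 of Pln. The member with the 1 Myl4 UMI also had 1 of Myl7, 3 of Myl2 and 2 of Pln, and a member with 633 UMIs had 1 each of Myl7 and Nppa, 3 of Kcnj3, 0 of Myl2 and 1 of Pln. The 3 without Myl2 and Pln held 4.79%, 3.27% and 3.54% of the rule's cardiomyocyte genes, so they all leave the group when that minimum is set at 5%. The log2 ratios were then -1.49 for Angpt1, -0.20 for Pam, 0.27 for Myl2 and 0.40 for Pln. Among compared cardiomyocytes of that library 431 of 4596 (9.38%) had neither Myl2 nor Pln, and Kcnj3 was at 361 CPM and Fgf12 at 6.22 CPM in those.

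The 18 members chosen by Sbk2 alone had none of this pattern. They had 0 UMIs of Nppa, Myl4, Mybphl and Dkk3, and 15 of 18 had Myl2. Kcnj3 was at 287 CPM (138 to 529), near the 354 CPM of the compared cells, and Pln at 2817 CPM. The member with the most Sbk2, at 3 UMIs, also had 18 UMIs of Dcn and 21 of Gsn, which are fibroblast markers. Myl7 in that library had a UMI in 0.130% of cardiomyocytes and 0.297% of other barcodes, the reverse of the order given above for Sbk2.

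Between the libraries, of 198 eligible genes 34 were at least 2-fold higher in members of the library labelled p53 knockout (17.2%) and 30 at least 2-fold lower (15.2%), with a median log2 ratio of 0.05. Of the 34, 25 met the minimum only through the members of that library, and of the 153 that met it in members of the other 9 were at least 2-fold higher and 30 at least 2-fold lower. Myl4 had 3645 and 21.2 CPM (6.84), Nppa 18361 and 212 CPM (6.37) and Ankrd1 6965 and 84.8 CPM (6.19). Of the load response list Nppb (4.31), Des (2.09), Myh7 (2.01) and Csrp3 (1.48), a muscle LIM protein, were higher, but of its 6 eligible genes 5 met the minimum only through the members of the library labelled p53 knockout. Kcnj3 was lower, with a log2 ratio of -1.07, but 0.83 with cardiomyocyte genes at 5% or more. Among members with UMIs of at least 2 of the 4 atrial genes, of which the library labelled wild-type has 1, Myh7 had a ratio of -1.48. Of 9 genes of adult sarcomeres that met the minimum in members of the library labelled wild-type 4 were at least 2-fold higher, among them Actc1, cardiac actin, with 5016 and 1674 CPM (1.58) and Tpm1, tropomyosin, with 4326 and 1653 CPM (1.38).

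The compared cardiomyocytes differed between the libraries too. Nppa had 1076 CPM in the 663 of the library labelled p53 knockout and 30.1 CPM in the 4596 of the other, a ratio of 35.8 (30.8 to 41.8), and Myl4 29.1 and 5.98 CPM, a ratio of 4.87 (3.13 to 7.63). The load response list differed alike in these cells that were no members: all 14 of its eligible genes had ratios above 0, 9 were at least 2-fold higher, and the median was 1.92. Nmrk2 and Cyfip2 met the minimum only through the library labelled p53 knockout. Of the 12 that met it in the other library alone, 7 were at least 2-fold higher, with a median of 1.54. Of 8061 eligible genes 2.83% were at least 2-fold higher and 11.3% at least 2-fold lower. Of the 7813 that met the minimum in the library labelled wild-type alone, these shares were 1.86% and 11.7%. The member comparison shares this difference, as well as the label, the sex and the deeper sequencing, and these cannot be told apart.

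Markers of other cells were looked at in the members as well. Genes of the conduction system had 39 UMIs in all in members of the library labelled p53 knockout (317 CPM, against 212 CPM in the compared cells) and 9 UMIs in members of the other library. Hcn4, Shox2, Isl1 and Tbx3, which define pacemaker cells, were at 0 in all members. In the library labelled p53 knockout summed fibroblast markers were at 1185 CPM in the members and 806 CPM in the compared cells, with 6 of 7 markers present and 50 of 77 Gsn UMIs in 1 member. Endothelial markers were at 463 and 629 CPM, endocardial markers at 187 and 316 CPM, macrophage markers at 203 and 138 CPM, and lymphoid and adipocyte markers at 0 UMIs in the members. Fibroblast markers were at 2055 and 1556 CPM in members and compared cells of the library labelled wild-type. The part of these markers in the results was not tested. Summed targets of p53 were at 690 and 842 CPM in members and compared cells of the library labelled p53 knockout and at 869 and 793 CPM in those of the other, with 11 and 9 of 19 targets present.

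The limit on cardiomyocyte genes excluded many barcodes with atrial transcripts. In the library labelled p53 knockout 7 members lay just inside it, at 2.5 to 3%, of which 4 had Myl4 and 7 had Nppa. Just outside, at 2 to 2.5%, 17 barcodes had an atrial UMI, with 11 and 13 having Myl4 and Nppa, and the highest of them had 148 atrial UMIs. Between 1% and 2.5%, 19 barcodes had 5 or more atrial UMIs; all 19 had Myl4 and Nppa, at 11496 and 99877 CPM, with Myl2 at 380 CPM and a median mt- share of 18.1%. By contrast, the 5 barcodes with 5 or more atrial UMIs and under 0.1% of cardiomyocyte genes all had the fibroblast marker Dcn, and their Myl4 level was 13.5 CPM. For the library labelled wild-type 3 members lay just inside and 2 barcodes just outside, and 0 of these 5 had Myl4.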

How the data were processed

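The values are whole-number UMI counts per gene and barcode, deposited by the authors as sparse matrices without normalization. Cell Ranger, Seurat and the build mm10 are named per the submitters' processing notes, and their versions are not given in the sources used here. Per the labels a 10x 3' kit was used, although the deposited barcodes are 3 blocks of 9 bases; whether whole cells or nuclei were captured is not stated there. No deposited barcode has fewer than 500 UMIs.

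Members were found by the rule that opens the report, in Python 3.11.15 (numpy 2.4.6, pandas 2.3.3, scipy 1.17.1). The members, gene lists and comparisons were chosen with earlier results of these data known. UMIs were summed over the cells of a group and given as CPM of UMIs outside mt- genes. Log2 ratios have 0.5 UMI added to each sum and exact conditional binomial intervals, levels have exact Poisson intervals, and shares have Clopper-Pearson intervals. PCR and capture make counts less independent than these assume. Genes were eligible with at least 30 UMIs in the members or expected there (list counts and medians also with the latter alone), and at least 2-fold is the call. Mt-, ribosomal protein, haemoglobin, sex-linked and unnamed genes and the 8 rule genes were not eligible. Named were the 12 highest and 12 lowest ratios in the library labelled p53 knockout, the 6 highest and lowest in the other, the rule genes, and list genes with at least 10 UMIs in members of 1 library, or those at the top of a list. A gene named outside this rule, among them Hamp, Stard10, Vegfa and Neat1, was chosen after its values were seen. Barcodes outside the cardiomyocyte rule were assigned to fibroblast, endothelial or macrophage markers. This took at least 3 UMIs of that list and at least 3 times those of the other lists, also set after the data were seen.

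Doublets were scored with Scrublet (scanpy 1.11.5). Its automatic threshold marked 0 barcodes of the library labelled wild-type and 1 of the other (0.00988%), so it did not work; no barcode was removed, and leaving out the 8% with the highest scores was an alternative. That alternative takes 4 of 27 members (14.8%) in the library labelled wild-type and 0 of 38 in the other. The calculations were tested on simulated data. Gene positions are from GENCODE M21 on mm10, which matched 32445 of 32589 identifiers; 4 promoter windows are from RefSeq, and Sln has none in that table.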

Additional observations from a re-analysis of the deposited data

Results flagged for a closer look

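Of 546 genes compared in this way, 12 had ratios of members to compared cells with opposite signs in the 2 libraries and intervals clear of 0. In 2 of these the ratio was at least 2-fold in each library, and they are given here as the extremes of that search. Ankrd1, a stretch-responsive gene of cardiac muscle, was 1 of them. Its log2 ratio of members to compared cardiomyocytes was 1.66 (1.55 to 1.77) in the library labelled p53 knockout, from 858 UMIs in the members, and -1.57 (-3.62 to -0.38) in the library labelled wild-type, from 4 UMIs. Atp5j2, a subunit of ATP synthase, had ratios of 1.07 (0.58 to 1.51) from 46 UMIs and -2.87 (-8.76 to -0.98) from 1 UMI. With 1 library per group these differences between the libraries were not tested.

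Barcodes outside the cardiomyocyte limit also held atrial transcripts: 30 of them had 5 or more UMIs of Myl7, Sln, Bmp10 and Sbk2 in the library labelled p53 knockout, against 1 in the library labelled wild-type. Of the 30, 25 had Myl4 and 27 had Nppa, and their median mt- share was 11.3%.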

How the results depend on the processing

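No test was run, so an alternative could only move a value or its direction. Each of 57 values was recomputed under up to 18 other settings, 631 values in all. Of the values for named genes and minor lists 339 stayed within the interval of the value reported, 140 moved outside it and 9 reversed; of the shares, gene counts and the atrial and ventricular medians 102 stayed and 41 moved. The percent of cardiomyocytes that were members, 5.42% in the library labelled p53 knockout and 0.584% in the other, was 2.43% and 0.108% with at least 2 UMIs, 1.57% and 0% with at least 5, 1.85% and 0.0216% with UMIs of at least 2 of the 4 genes, 3.14% and 0.260% after thinning, and 3.85% in the former with Sln left out. The log2 ratio of these shares, 3.21, was 4.49 with at least 2 UMIs and 6.42 with at least 2 genes, and ran from 2.78 to 6.42 over 7 alternatives. In the library labelled p53 knockout the genes at least 2-fold higher, 61, were 20 with cardiomyocyte genes at 5% or more, 29 with mt- shares up to 20%, 14 with mt- shares of 5% or more on both sides, 19 without the 2 members highest in atrial UMIs and 18 with the minimum met in the compared cells alone, the last 3 settings being chosen after the data were seen; the last leaves fewer genes tested. Those at least 2-fold lower, 16, were 61, 58 and 70 with at least 2 UMIs, 5 UMIs and 2 genes, 58 with each cell scaled to its own total, and 9 both with mt- shares up to 20% and without the 2 highest members. The median of the atrial list there, 2.34, ran from 1.32 with the minimum in the compared cells alone to 4.61 with at least 5 UMIs, and that of the ventricular list, -0.57, was -1.84 with mt- shares of 5% or more; Kcnj3 reversed to -0.68 with at least 5 UMIs.

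In the library labelled wild-type the 6 genes at least 2-fold higher were 1 with at least 2 UMIs, 0 with at least 2 genes and 0 with the minimum in the compared cells alone, and the 2 lower were 1 and 0, 0 with cardiomyocyte genes at 5% or more, and 1 without the 2 highest members or without the highest doublet scores. With cardiomyocyte genes at 5% or more, Angpt1 reversed to -1.49, Pam to -0.20, Myl2 to 0.27 and Pln to 0.40. At 5 or more UMIs that library has no members and gave no value. Between the libraries the 34 higher and 30 lower genes were 14 and 3 with at least 2 UMIs, 1 and 0 with at least 2 genes, 9 and 30 with the minimum in the second group alone, and 12 and 5 with cardiomyocyte genes at 5% or more, where the ventricular median went from -0.04 to -1.15 and Kcnj3 reversed to 0.83; the median was -0.56 without the highest doublet scores. With at least 2 genes Myh7 reversed to -1.48, Myl2 to 1.07 and Pln to 2.06. Stricter rules leave fewer members and so fewer eligible genes; the cause of the other shifts was not tested. No paired analysis was possible because each group is 1 library and no test was run.

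The limits are those of 1 library per group of 3 mixed hearts, a label that Trp53 counts did not bear on, sex differing with the label, and few members: 1 UMI decides membership for 43 of 65.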
